A study of Mus musculus with 6 samples.

Results

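The SLC30 family holds the 10 mouse zinc transporter genes Slc30a1 to Slc30a10, taken from 55421 genes counted in each of 6 RNA-seq libraries of pancreatic islets by matching Ensembl IDs to symbols in GENCODE M21. All 10 were found, and 8 had enough reads to be tested among 17016 genes. The libraries came from WT mice of the strain C57BL/6, 3 in the group labelled as stimulated with the ligand insB:9-23 and 3 in the vehicle group. A peptide of this name comes from the insulin B chain and is known as a target of immune cells in autoimmune diabetes. The sources used here do not give age, sex, dose, duration, or whether mice or isolated islets received the ligand. They also do not tie a library to 1 animal or pool, so the spread behind each p-value may be technical. The question taken up here is how the zinc transporters rank in islets and whether the ligand group differed from the vehicle group in any of them.

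SLC30 proteins, also called ZnT, move zinc out of the cytosol, either across the plasma membrane or into organelles and vesicles. SLC39 proteins, also called ZIP, move zinc the other way. Beta cells pack insulin with zinc as crystals in their secretory granules, and Slc30a8 encodes the transporter that fills those granules. Islet alpha cells express Slc30a8 as well.

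Total counts were 52052808 to 58880189 per library. Levels are given as CPM (counts divided by the TMM-scaled library size) when 1 gene is compared between libraries, and as RPKM (CPM per kilobase of exon) when different genes are compared. The libraries carried both islet and exocrine RNA. The 12 beta cell markers other than Slc30a8 took 9.62% to 13.9% of counts in insB:9-23 libraries and 12% to 13.9% in vehicle libraries. The 8 alpha cell markers took 1.48% to 2.4% in insB:9-23 libraries and 2.23% to 2.65% in vehicle libraries. The 22 acinar markers took 17.2%, 15.1% and 22.9% in insB:9-23 replicates 1 to 3, and 13.8%, 15.1% and 16% in vehicle replicates 1 to 3. The 8 immune markers took 0.00383%, 0.0152% and 0.00182% in insB:9-23 replicates 1 to 3, and 0.00449%, 0.00364% and 0.00402% in vehicle replicates 1 to 3. Mafa, a defining beta cell transcription factor, was at 0 counts in all 6 libraries, and no other marker was. In such tissue RNA, fewer cells of a type and less RNA per cell cannot be told apart.

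Slc30a8 was by far the most abundant zinc transporter. It held 87.5%, 87.7% and 86.7% of the summed RPKM of the family in insB:9-23 replicates 1 to 3, and 86.4%, 88.6% and 87.1% in vehicle replicates 1 to 3. At 255 ± 5.88 RPKM (SD, n = 6 libraries) it ranked 72nd by mean RPKM among the 17016 genes tested. It was 28.5-fold above the next member, Slc30a5, in the means, and higher in 6 of 6 libraries.

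Below it, a group of 6 genes lay within a narrow band. Slc30a5 averaged 8.96 ± 1.53 RPKM, Slc30a9 6.95 ± 0.363, Slc30a4 6.46 ± 2.29, Slc30a7 5.91 ± 2.15, Slc30a1 4.29 ± 0.632 and Slc30a6 3.47 ± 0.705 RPKM (SD, n = 6 libraries each). The ranges of neighbours in this band overlapped in every case, so no neighbouring pair was set apart. Across the band, Slc30a5 and Slc30a9, at 6.50 RPKM or more in every library, lay above Slc30a1 and Slc30a6, at 5.11 RPKM or less. Slc30a2 followed at 0.973 ± 0.454 RPKM, below Slc30a6 in 6 of 6 libraries. Slc30a10 and Slc30a3 were close to 0. The ranges of neighbours did not overlap at 3 steps of the order, from Slc30a8 to Slc30a5, from Slc30a6 to Slc30a2 and from Slc30a2 to Slc30a10. An exact two-sided sign-flip permutation test over the 6 libraries gave p = 0.0312 for the first and for the second of these steps, the smallest value it can give, and an adjusted p of 0.109 over the 7 neighbour pairs that could be tested. The other 5 pairs had an exact permutation p of 0.0625 to 0.969. The length used per gene matters for the band: Slc30a5 came second per exon length, and Slc30a7 came second per coding length, where Slc30a8 stood 7.88-fold above it and held 70.6% of the family.

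**Figure D1:**
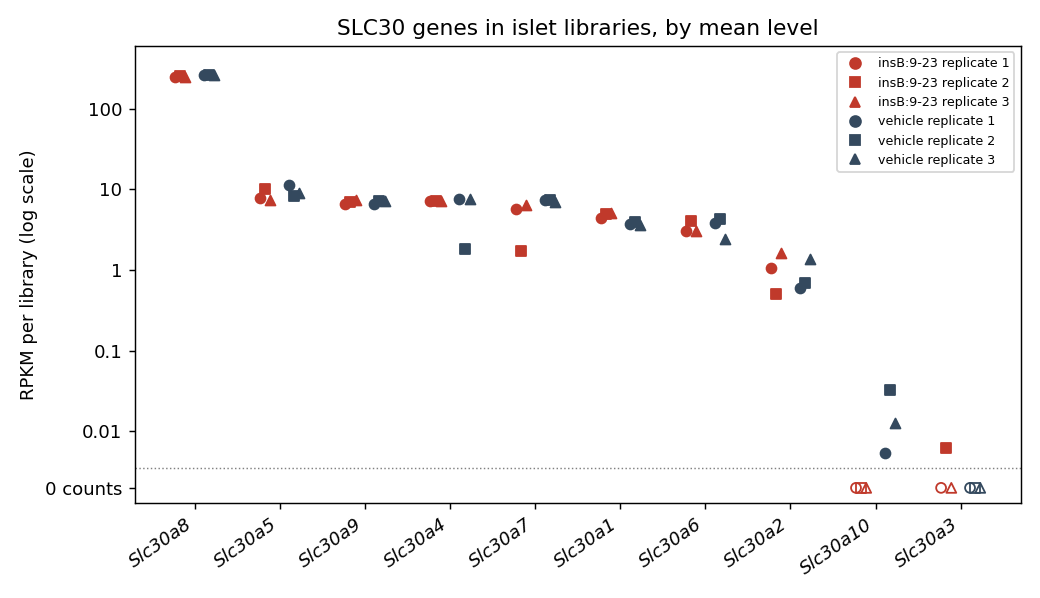
RPKM on a log scale for the 10 SLC30 genes in each library, ordered by mean, with insB:9-23 libraries in red left of vehicle libraries in dark blue and open symbols for 0 counts. Slc30a8 sits at 248 to 262 RPKM in every library, and the next 6 genes overlap, with single low points for Slc30a4 in vehicle replicate 2 and Slc30a7 in insB:9-23 replicate 2.

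Between the groups, 0 of 8 tested members passed the edgeR quasi-likelihood test, against 0.0823% of all genes tested (14 of 17016). At an unadjusted p below 0.05 there was 1 member, Slc30a1, against 5.55% of all genes, and DESeq2 called 0 members, against 0.682% of all genes (116 of 17016). The CPM ranges of the groups did not overlap for 3 of 8 members (Slc30a1, Slc30a7 and Slc30a8), against 13.5% of all genes tested. Of the 8 log2 folds 3 were above 0 and 5 below, with a median of -0.03, against a median of 0.009 over all genes.

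Slc30a8, the granule transporter, differed very little among the libraries after TMM scaling. It had 492, 498 and 489 CPM in insB:9-23 replicates 1 to 3 (28843, 27986 and 22361 counts), against 517, 512 and 509 CPM in vehicle replicates 1 to 3 (32674, 31972 and 27148 counts). All 3 insB:9-23 libraries lay just below all 3 vehicle libraries. The means were 493 ± 4.62 CPM in the insB:9-23 group and 513 ± 4.28 CPM in the vehicle group (SD, n = 3 each). The log2 fold was -0.06 ± 0.05 (SE) with a 95% interval of -0.17 to 0.06, that is 0.886-fold to 1.04-fold (edgeR adjusted p = 0.90). Its coefficient of variation over the 6 libraries was 2.31%, and 0.409% of the genes with a mean of at least 5 CPM had a smaller one (median 12%). By library totals alone the coefficient of variation was 11.7% and the log2 fold -0.21 ± 0.14 (SE; edgeR adjusted p = 0.822), where the median over all genes was -0.145.

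The summed counts of the 12 other beta markers came mostly from Ins2, Ins1 and Iapp. In vehicle replicate 1 these had 4492805, 2536076 and 780945 counts, and the next marker, Ero1lb, had 138783. Set against this sum, Slc30a8 gave 4.11, 3.75 and 4.09 counts per 1000 beta marker counts in insB:9-23 replicates 1 to 3. In vehicle replicates 1 to 3 it gave 4.04, 4.44 and 4.33. The groups overlapped, with means of 3.98 ± 0.203 and 4.27 ± 0.209 in the insB:9-23 and vehicle groups (SD, n = 3 each). The log2 difference was -0.10 (exact two-sided permutation test, p = 0.30, where 3 against 3 libraries cannot go below 0.10), and -0.23 with the median of the markers in place of their sum (exact permutation p = 0.60). The gene spans 52295553 to 52335798 on chromosome 15 (GRCm38, plus strand), and its 1 annotated transcript is 1971 bases long.

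The 5 genes whose profile over the 6 libraries was most like that of Slc30a8, among 9955 candidates, were Washc2, Scaf11, Slk, Snap25 and Chm. Likeness was the root mean square difference of centred log2 CPM, which was 0.011 for Washc2 and 0.019 for Chm, against a median of 0.159 over the candidates. Snap25, a SNARE protein of vesicle fusion, had 49.1, 51.1 and 49.4 CPM in insB:9-23 replicates 1 to 3 and 52.5, 52.4 and 50.7 CPM in vehicle replicates 1 to 3. Like Slc30a8, these genes varied little among the libraries.

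**Figure D2:**
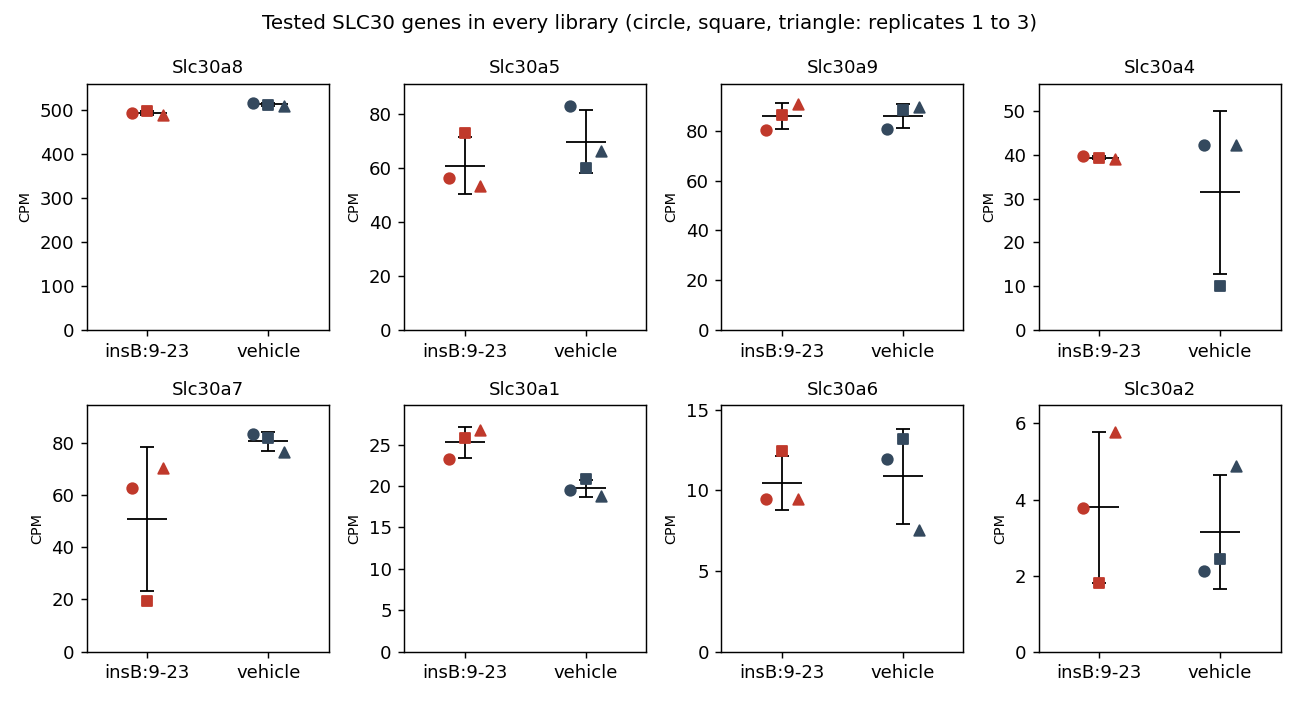
CPM of the 8 tested SLC30 genes in each library, insB:9-23 left of vehicle, with bars at the mean ± SD (n = 3 each) and axes that start at 0. The groups of Slc30a1 do not overlap, with 23.2 to 26.8 CPM in insB:9-23 libraries and 18.8 to 20.8 CPM in vehicle libraries.

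Slc30a1, which exports zinc across the plasma membrane, had 23.2, 25.8 and 26.8 CPM in insB:9-23 replicates 1 to 3, against 19.5, 20.8 and 18.8 CPM in vehicle replicates 1 to 3. Every insB:9-23 library lay above every vehicle library. The means were 25.3 ± 1.85 CPM in the insB:9-23 group and 19.7 ± 0.991 CPM in the vehicle group (SD, n = 3 each). The log2 fold was 0.36 ± 0.09 (SE; 95% interval 0.13 to 0.59; unadjusted p = 0.0088), and it did not pass over all genes (edgeR adjusted p = 0.88). By library totals alone the fold was 0.20 ± 0.15 (SE; edgeR adjusted p = 0.82), where the median over all genes moved to -0.145. An antisense gene, 1700034H15Rik, covers 8.92% of its exon length and had 33 to 56 counts in insB:9-23 libraries and 38 to 64 in vehicle libraries, and the reads of that part cannot be told apart if the counting, whose strand setting is not known, did not use strand.

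Slc30a1 shares a known regulator with the metallothionein genes Mt1 and Mt2, whose small proteins bind zinc. This regulator is the zinc-sensing transcription factor MTF-1, encoded by Mtf1. MTF-1 binds metal response elements with the core TGCACNC or TGCGCNC. The promoter windows of Slc30a1, Mt1 and Mt2 are shown because for each of them all insB:9-23 libraries lay above the vehicle libraries. They are RefSeq windows on GRCm38.p6, plus strand, from 250 bases before to 50 after the RefSeq start, at chr1:191906531-191906830 (Slc30a1), chr8:94178839-94179138 (Mt1) and chr8:94172368-94172667 (Mt2). Capitals mark matches to either core on either strand.
Slc30a1: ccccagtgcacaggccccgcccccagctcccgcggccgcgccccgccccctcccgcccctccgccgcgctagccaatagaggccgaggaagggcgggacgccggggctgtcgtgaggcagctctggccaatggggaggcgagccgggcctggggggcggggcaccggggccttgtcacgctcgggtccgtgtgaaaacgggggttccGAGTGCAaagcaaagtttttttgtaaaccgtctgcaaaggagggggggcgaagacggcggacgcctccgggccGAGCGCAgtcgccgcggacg
Mt1: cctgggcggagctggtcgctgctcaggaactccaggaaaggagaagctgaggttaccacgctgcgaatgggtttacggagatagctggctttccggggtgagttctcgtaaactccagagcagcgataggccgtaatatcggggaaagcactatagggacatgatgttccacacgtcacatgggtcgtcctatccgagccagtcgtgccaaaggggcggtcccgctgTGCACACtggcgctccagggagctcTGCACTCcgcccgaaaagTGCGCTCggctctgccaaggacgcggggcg
Mt2: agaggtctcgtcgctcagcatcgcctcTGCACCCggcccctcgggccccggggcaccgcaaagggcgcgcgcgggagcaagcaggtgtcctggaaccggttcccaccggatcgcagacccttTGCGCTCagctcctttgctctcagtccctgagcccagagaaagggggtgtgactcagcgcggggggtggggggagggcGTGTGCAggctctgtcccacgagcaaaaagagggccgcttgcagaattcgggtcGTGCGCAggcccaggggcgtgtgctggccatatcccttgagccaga

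Slc30a1 held 2 matches, at -43 and 31 from the start, while Mt1 held 3 and Mt2 held 4. Of 32851 windows of the same length, 25.7% held at least 1 match, 7.11% at least 2 and 1.97% at least 3. Windows were found for 9 members, and not for Slc30a8. Slc30a4 and Slc30a10 held 3 matches each, of which 2 in Slc30a10 overlap on opposite strands, Slc30a2 held 2 like Slc30a1, Slc30a5 held 1, Slc30a3 held 1 in 1 of its 2 windows, and Slc30a6, Slc30a7 and Slc30a9 held 0. A match is a run of letters and not a measured binding site.

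Mt1 had 218, 196 and 287 CPM in insB:9-23 replicates 1 to 3, against 147, 157 and 153 CPM in vehicle replicates 1 to 3. Its log2 fold was 0.61 ± 0.15 (SE; unadjusted p = 0.0059; edgeR adjusted p = 0.83). Mt2 had 88.5, 73.8 and 130.3 CPM in insB:9-23 replicates 1 to 3, against 53.9, 60.0 and 59.6 CPM in vehicle replicates 1 to 3, with a log2 fold of 0.75 ± 0.21 (SE; unadjusted p = 0.013; edgeR adjusted p = 0.88). For both genes the groups did not overlap, and the highest library, insB:9-23 replicate 3, was also the one with the largest acinar share (22.9%). With the acinar marker share as a covariate the log2 folds were 0.32 ± 0.12 for Slc30a1, 0.36 ± 0.08 for Mt1 and 0.36 ± 0.08 for Mt2 (SE; edgeR adjusted p = 0.94, 0.79 and 0.87). Without insB:9-23 replicate 3 they were 0.32 ± 0.10, 0.44 ± 0.08 and 0.49 ± 0.11 (SE; edgeR adjusted p = 0.94, 0.45 and 0.75).

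Mtf1 itself had 18, 18.6 and 20.01 CPM in insB:9-23 replicates 1 to 3, against 23.8, 37.8 and 36.8 CPM in vehicle replicates 1 to 3, so that all 3 insB:9-23 libraries lay below the vehicle libraries. Its log2 fold was -0.80 ± 0.19 (SE; unadjusted p = 0.0058; edgeR adjusted p = 0.83). DESeq2 called it (adjusted p = 0.0498), among 116 calls over all genes against 14 by edgeR. Over the 15 alternatives the adjusted p lay between 0.0498 and 0.959 for Mtf1, 0.0718 and 0.993 for Mt1, 0.154 and 0.993 for Mt2, and 0.213 and 0.993 for Slc30a1. Mt3, a metallothionein best known from brain, was at 0.669 ± 0.240 CPM in the insB:9-23 group and 1.03 ± 0.201 CPM in the vehicle group (SD, n = 3 each). Unlike Mt1 and Mt2, it was lower in every insB:9-23 library than in every vehicle library. Its log2 fold was -0.62 ± 0.40 (SE; edgeR adjusted p = 0.88), at a low level. Mt4 was at 0 counts in every library. Of the 4 tested genes of the list of metallothioneins and Mtf1, 0 passed the edgeR test (0.0823% of all genes) and 3 had an unadjusted p below 0.05 (5.55% of all genes).

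**Figure D3:**
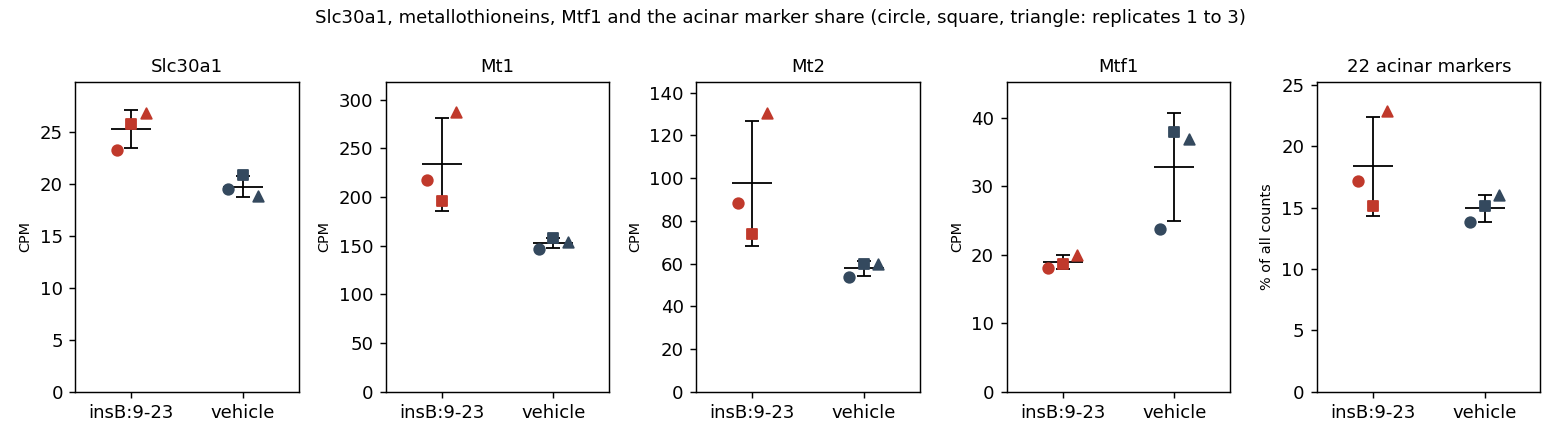
CPM of Slc30a1, Mt1, Mt2 and Mtf1 and the share of all counts in 22 acinar markers, per library with the mean ± SD (n = 3 each), insB:9-23 left of vehicle. The first 3 genes are higher and Mtf1 lower in every insB:9-23 library than in every vehicle library, and the acinar share is highest in insB:9-23 replicate 3 at 22.9%.

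Slc30a5, Slc30a6 and Slc30a7 supply zinc to the early secretory pathway, Slc30a5 and Slc30a6 as a heterodimer and Slc30a7 as a homodimer. Slc30a5 had 56.4, 73.0 and 53.4 CPM in insB:9-23 replicates 1 to 3, against 82.9, 60.2 and 66.4 CPM in vehicle replicates 1 to 3. The groups overlapped, and the log2 fold was -0.20 ± 0.17 (SE; 95% interval -0.62 to 0.22; edgeR adjusted p = 0.90). Slc30a6 was at 10.5 ± 1.71 CPM in the insB:9-23 group and 10.9 ± 2.95 CPM in the vehicle group (SD, n = 3 each), with a log2 fold of -0.06 ± 0.24 (SE; 95% interval -0.65 to 0.54; edgeR adjusted p = 0.98). With the acinar marker share as a covariate the directions turned, to 0.01 ± 0.16 for Slc30a5 and 0.15 ± 0.29 for Slc30a6 (SE; edgeR adjusted p = 0.996 and 0.98). The fold of Slc30a6 changed sign in 5 of 15 alternatives. The heterodimer partners were unequal in level, at 8.96 RPKM for Slc30a5 and 3.47 RPKM for Slc30a6 over the 6 libraries.

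Slc30a7 had 62.7, 19.4 and 70.5 CPM in insB:9-23 replicates 1 to 3, against 83.3, 81.9 and 76.5 CPM in vehicle replicates 1 to 3. All 3 insB:9-23 libraries lay below the vehicle libraries, but insB:9-23 replicate 2 was 3.24-fold below the lowest of the other 5 libraries. The log2 fold was -0.66 ± 0.46 (SE; 95% interval -1.80 to 0.48; edgeR adjusted p = 0.89) with that library and -0.27 ± 0.08 (SE; unadjusted p = 0.023; edgeR adjusted p = 0.76) without it. With the acinar marker share as a covariate it was -1.35 ± 0.53 (SE; unadjusted p = 0.056; edgeR adjusted p = 0.94). This library was also the one with the highest share of immune markers (0.0152%), whose part in the low value was not tested.

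Slc30a4, which loads zinc into vesicles and is known from the lethal milk mouse, had a single low library too, in the other group. It had 39.6, 39.4 and 39.1 CPM in insB:9-23 replicates 1 to 3, against 42.3, 9.94 and 42.1 CPM in vehicle replicates 1 to 3. Vehicle replicate 2 was 3.93-fold below the lowest of the other 5 libraries, with 620 counts against 1789 to 2671. The log2 fold was 0.32 ± 0.53 (SE; 95% interval -0.98 to 1.62; edgeR adjusted p = 0.95) with that library and -0.10 ± 0.07 (SE; edgeR adjusted p = 0.96) without it, so vehicle replicate 2 sets its direction. Among 10277 tested genes with a mean of at least 5 CPM, 306 (2.98%) had 1 library at least 3-fold below the lowest of the other 5, and they were spread over the libraries at 45 to 62 genes each. In the other direction, 34 genes had 1 library at least 3-fold above the rest. The genes that overlap Slc30a4 and Slc30a7 on the opposite strand had at most 12 counts in any library.

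Slc30a9, whose protein acts in mitochondrial zinc export, was steady. It had 80.5, 86.2 and 90.9 CPM in insB:9-23 replicates 1 to 3, against 80.5, 88.4 and 89.3 CPM in vehicle replicates 1 to 3. The ranges of the groups were almost the same, with a log2 fold of 0.00 ± 0.08 (SE; 95% interval -0.19 to 0.18; edgeR adjusted p = 0.99) whose sign changed in 5 of 15 alternatives.

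Slc30a2, a vesicular transporter of secretory epithelia such as mammary gland and exocrine pancreas, was low and variable. It had 3.77, 1.81 and 5.79 CPM in insB:9-23 replicates 1 to 3 (221, 102 and 265 counts), against 2.12, 2.44 and 4.87 CPM in vehicle replicates 1 to 3 (134, 152 and 260 counts). The groups overlapped over most of their range, and the log2 fold was 0.27 ± 0.52 (SE; 95% interval -1 to 1.55; edgeR adjusted p = 0.95). The fold was -0.16 ± 0.52 without insB:9-23 replicate 3 and -0.58 ± 0.38 with the acinar marker share as a covariate (SE; edgeR adjusted p = 0.99 and 0.96). It was 0.73 ± 0.52 without vehicle replicate 3, 0.60 ± 0.45 without insB:9-23 replicate 2, 0.05 ± 0.58 without vehicle replicate 1 and 0.12 ± 0.62 without vehicle replicate 2 (SE; edgeR adjusted p = 0.835 to 0.999).

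Per 1000 acinar marker counts, Slc30a2 gave 0.022, 0.0126 and 0.0203 counts in insB:9-23 replicates 1 to 3, and 0.0166, 0.0171 and 0.0311 counts in vehicle replicates 1 to 3. The groups overlapped here too, with a log2 difference of -0.22 (exact two-sided permutation test, p = 0.60). The 5 genes with the profile most like that of Slc30a2 were Klhl26, Rab40c, Try10, Timm17a and Scn8a, with root mean square differences of 0.223 to 0.26 against a median of 0.624. Klhl26, the nearest, had 8.09, 3.34 and 8.06 CPM in insB:9-23 replicates 1 to 3 and 4.67, 5.18 and 8.47 CPM in vehicle replicates 1 to 3. Try10, a trypsinogen gene of acinar cells, was the third nearest. Its levels were 90.3, 60.8 and 140.5 CPM in insB:9-23 replicates 1 to 3 and 62.8, 73.7 and 94.4 CPM in vehicle replicates 1 to 3. Try10 belongs to a family of similar trypsinogen genes that may share reads, which makes its level uncertain.

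Slc30a3 and Slc30a10 were at or near the detection limit of these libraries, where 3 counts correspond to 0.0475 to 0.0655 CPM. Slc30a3, the zinc transporter of synaptic vesicles, had 1 count in insB:9-23 replicate 2 and 0 in the other 5 libraries. Slc30a10, known mainly as a manganese exporter, had 0 counts in every insB:9-23 library, against 2, 12 and 4 counts in vehicle replicates 1 to 3. The 2 counts of vehicle replicate 1 were themselves below the limit of 3 counts, and most of the reads came from vehicle replicate 2, so no fold is given. Both genes were too low for the test over all genes.

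Per exon length, the opposing SLC39 importers had a higher summed level than the SLC30 genes other than Slc30a8. They summed to 107, 110.4 and 123 RPKM in insB:9-23 replicates 1 to 3 and 97.8, 109.7 and 143 RPKM in vehicle replicates 1 to 3. The 9 other SLC30 genes summed to 35.7, 35.4 and 38.0 RPKM in insB:9-23 replicates 1 to 3 and 41.3, 33.5 and 38.3 RPKM in vehicle replicates 1 to 3. Per coding length Slc30a8 held 70.6% of its family, against 87.3% per exon length, so the part of the other members was larger. The SLC39 genes were not summed per coding length, so whether the gap holds there was not tested. Of 14 SLC39 genes 13 were tested, and 0 passed the edgeR test in either direction (0.0823% of all genes). Their log2 folds were above 0 for 7 and below 0 for 6, with a median of 0.06 against 0.009 over all genes, and 1 had an unadjusted p below 0.05, a share near the 5.55% of all genes.

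That gene was Slc39a6, a plasma membrane importer, at 35.1 ± 1.20 CPM in the insB:9-23 group and 41.1 ± 2.45 CPM in the vehicle group (SD, n = 3 each; log2 fold -0.23 ± 0.08, SE; edgeR adjusted p = 0.88). Slc39a9 was at 96.4 ± 4.27 CPM in the insB:9-23 group and 107.5 ± 4.65 CPM in the vehicle group (edgeR adjusted p = 0.88). Slc39a7, which releases zinc from the endoplasmic reticulum, had the highest level per length at 32.7 RPKM. It had 60.7, 92.0 and 66.3 CPM in insB:9-23 replicates 1 to 3, against 63.3, 69.4 and 155.1 CPM in vehicle replicates 1 to 3. Slc39a5, an importer known from pancreas, had 50.3, 39.8 and 83.1 CPM in insB:9-23 replicates 1 to 3, against 36.4, 40.9 and 47.1 CPM in vehicle replicates 1 to 3 (edgeR adjusted p = 0.88). Its highest library was insB:9-23 replicate 3, with an acinar marker share of 22.9%, and the part of that share in the result was not tested.

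**Figure D4:**
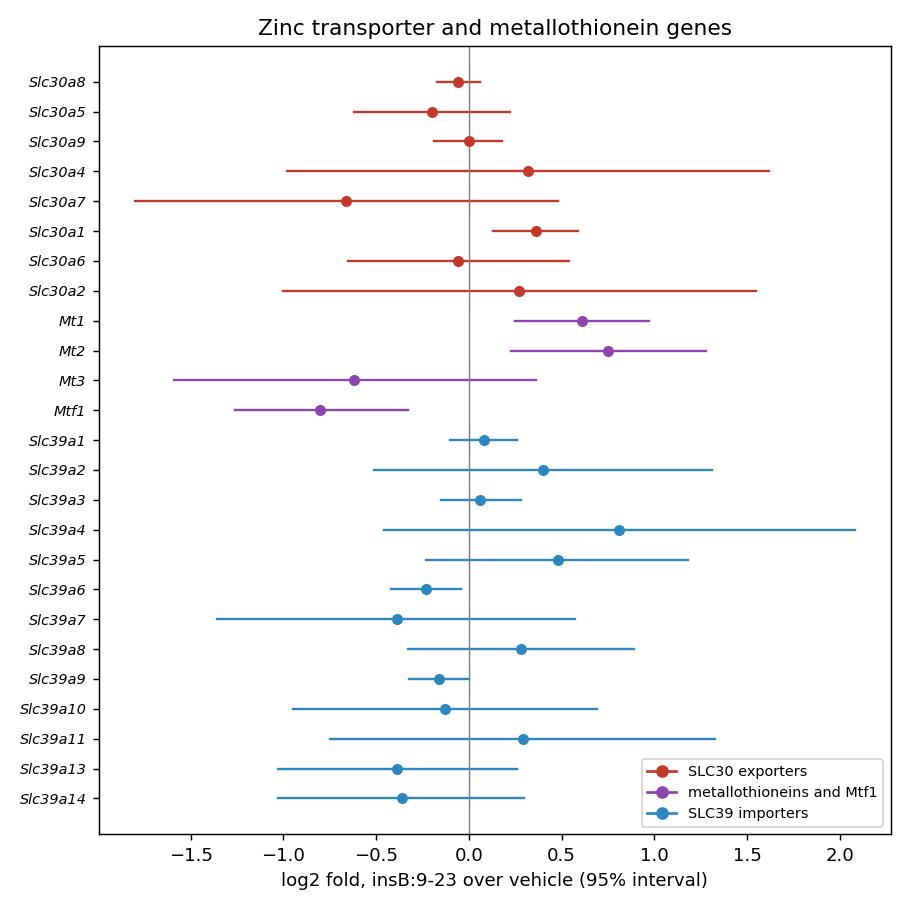
Log2 folds of insB:9-23 over vehicle with 95% intervals from the edgeR fit for the 8 tested SLC30 genes, 4 metallothionein and Mtf1 genes and 13 SLC39 genes. The interval is narrowest around Slc30a8 (-0.17 to 0.06) among the SLC30 genes, and those of Slc30a1, Mt1, Mt2, Mtf1 and Slc39a6 leave out 0 before adjustment over all genes.

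Insulin granule genes, the group to which Slc30a8 belongs, were compared as well. Of 14 granule genes, Slc30a8 included, 0 passed the edgeR test and 1 had an unadjusted p below 0.05, near the 0.0823% and 5.55% of all genes. In this list 5 had a log2 fold above 0 and 9 below, with a median of -0.03. Pcsk2, a prohormone convertase, had the smallest p, at 2494 ± 532 CPM in the insB:9-23 group and 3387 ± 142 CPM in the vehicle group (SD, n = 3 each; log2 fold -0.44 ± 0.17, SE; edgeR adjusted p = 0.88). Scg2, a granin, was at 3853 ± 822 CPM in the insB:9-23 group and 4978 ± 274 CPM in the vehicle group, and Ptprn2, a granule membrane protein, at 710.1 ± 33.3 CPM in the insB:9-23 group and 784 ± 32.4 CPM in the vehicle group (each edgeR adjusted p = 0.88). The most abundant cargo genes, Ins2 and Ins1, averaged 51450 and 36492 RPKM over the 6 libraries. In the list of early secretory zinc genes, Tmem163, a zinc-binding vesicle protein, had 36.5, 47.0 and 19.2 CPM in insB:9-23 replicates 1 to 3, against 24.2, 58.8 and 44.9 CPM in vehicle replicates 1 to 3. Of the 5 genes of that list 0 passed the edgeR test or had an unadjusted p below 0.05, near the 0.0823% and 5.55% of all genes, and 1 of the 5 log2 folds was above 0.

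The members lie on 8 chromosomes of GRCm38. Slc30a1 (191906767 to 191913247) and Slc30a10 (185454848 to 185468762) are on chromosome 1, and Slc30a3 (31086106 to 31108237) and Slc30a9 (67306955 to 67358443) on chromosome 5. Slc30a4 is on chromosome 2 (122681233 to 122702663), Slc30a7 on chromosome 3 (115938973 to 116007406) and Slc30a2 on chromosome 4 (134343181 to 134354484). Slc30a5 is on chromosome 13 (100802648 to 100833427) and Slc30a6 on chromosome 17 (74395608 to 74424221).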

How the data were processed

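RNA of islets was extracted with TRIzol and made into libraries with a KAPA stranded kit, per the labels' protocols. The deposited values are raw counts of reads for each Ensembl gene, per the file headers. Build GRCm38, DESeq 1.8.3, featureCounts 1.5.0-p3 and HISAT appear in the submitters' processing notes, with no roles. The sources used here give neither annotation release nor strand setting. Symbols and union exon lengths came from GENCODE M21 and matched 55154 of 55421 IDs. Counts were filtered with filterByExpr, scaled by TMM and tested with edgeR 4.0.16 (quasi-likelihood F test, robust) in R 4.3.3, with Benjamini-Hochberg adjustment over 17016 genes and a threshold of 0.05. Standard errors are the log2 fold divided by the root of F. The members, lists and tests were chosen with earlier results of these data known.

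Named genes were the 10 members, the 3 smallest p and the 2 highest RPKM of each zinc or granule list, and the 5 nearest profiles to Slc30a8 and Slc30a2, among genes with a mean of at least 5 CPM and log2 of CPM plus 0.1. Mt3 and Mafa were named after their values were seen, as was Mt4. The fit was checked on simulated data for 16480 genes. Shifts were planted only in genes above a minimum mean count, so the rates do not cover genes at low counts such as Mt3. Simulated shifts were detected in 83 out of 100 genes at the larger size (4-fold). At the smaller size (2-fold) only 19 out of 100 were detected. A further 10 genes were called without a simulated shift. Not passing the test therefore does not by itself show that a gene or list is free of a 2-fold difference. For single members the edgeR interval of the fold, not adjusted over all genes, is narrower or wider than this. It stayed within 2-fold for Slc30a8 (0.886 to 1.04), Slc30a9 (0.876 to 1.14) and Slc30a5 (0.653 to 1.16). The same held for Slc30a6 (0.637 to 1.45) and Slc30a1 (1.09 to 1.5). It reached past 2-fold for Slc30a2 (0.498 to 2.92), Slc30a4 (0.508 to 3.08) and Slc30a7 (0.286 to 1.39). Alternatives were other scalings and filters, DESeq2 1.42.0, limma-voom 3.58.1, a replicate block, an acinar covariate and each library left out. Protein sequences were not used here. Libraries of 1 group differed by 80 to 247 chi-square units per degree of freedom, so no library repeated another of its own group. Pairs across the groups were not compared in this way. The labels give no batch. Floors of 3 counts cover counting error only.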

Additional observations from a re-analysis of the deposited data

How the results depend on the processing

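No SLC30 member was called under any of the 15 alternatives of the fit, and of 120 member log2 folds 106 kept their direction and 14 reversed. Slc30a1, Slc30a7 and Slc30a8 kept their direction throughout (0.20 to 0.42, -1.35 to -0.27 and -0.21 to -0.04). Reversals were Slc30a9 with upper quartile scaling (0.01) and with a filter of 1 CPM in 3 libraries (0.00), and, with the acinar covariate, Slc30a2 (-0.58), Slc30a5 (0.01) and Slc30a6 (0.15). Leaving out 1 library each gave -0.16 to 0.73 for Slc30a2, -0.10 to 0.60 for Slc30a4, -0.26 to 0.10 for Slc30a6 and -0.05 to 0.04 for Slc30a9. The log2 ratio of Slc30a2 to acinar markers ranged from -0.38 to 0.08 in this way, and that of Slc30a8 to beta markers from -0.14 to -0.06; with the median of the markers in place of their sum these were -0.27 and -0.23 (exact permutation p = 0.60 each). Of the zinc pathway genes other than members, DESeq2 called 1 (Mtf1); the alternatives for Mt1, Mt2, Mtf1, this count and the coefficient of variation of Slc30a8 were added after the data were seen. Over all genes DESeq2 called 116, the acinar covariate 9, and fits without 1 library 16 to 26, against 14; the cause was not tested.

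With the replicate block the edgeR count over all genes was 0, with 605 genes at an unadjusted p below 0.05. Same-numbered libraries did not deviate together over all genes (correlations of -0.028, -0.069 and 0.001). No insB:9-23 library correlated best with the vehicle library of its own number. These correlations cannot show whether same-numbered libraries shared a batch, which the labels do not give. Neighbouring members were apart at 5 steps per coding length, 5 in vehicle libraries alone and 5 in insB:9-23 libraries alone, against 3, where fewer libraries also give narrower ranges. Slc30a3 and Slc30a10, at 0 to 12 counts a library, were tested only without a filter (edgeR adjusted p = 0.826 and 0.782).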
